A study of Danio rerio with 8 samples.

Results

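HHEX, dkk3b and fev are 3 genes of somatostatin-producing delta cells, or of islet cell differentiation, that were followed through sorted zebrafish pancreatic cells. They were taken from a table of 31953 zebrafish genes with earlier results of these data known. All 3 were among the 16418 genes that passed the filter on low counts. HHEX (ENSDARG00000098231, hhex, written in capitals in the table) and dkk3b (ENSDARG00000070683) were taken by name as delta-cell genes. Their p-values are therefore not those of genes named before the data were seen. fev (ENSDARG00000009242) was selected on its measured level, which was lower in ins+ than in sst1.1+ libraries, so its differences are given as a description, with no test.

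Pancreatic cells of zebrafish 30 days after fertilization, grown under conditions labelled Normal, were FACS-sorted and profiled as bulk RNA by Smart-Seq2, a full-length cDNA protocol without molecular identifiers. All fish carried both Tg(ins:BB1.0L), driven by the insulin promoter, and TgBAC(sst1.1:memEGFP), a membrane EGFP under the regulatory sequences of the somatostatin gene sst1.1. There were 3 libraries of sst1.1+ins+ cells, which carried signal from both transgenes, 2 libraries of ins+ cells and 3 libraries of sst1.1+ cells. Nothing in the labels ties replicates to separate fish, pools or sorting runs, and the p-values therefore describe the scatter of these libraries, part of which may be technical. The gates themselves read the ins and sst1.1 promoters, and in bulk RNA fewer cells expressing a gene and less of its RNA per cell cannot be told apart.

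HHEX encodes a homeodomain repressor that works with Groucho (Tle) corepressors. In the mouse islet it is made mainly by delta cells, and its loss there reduces somatostatin. dkk3b encodes a secreted glycoprotein of the Dickkopf family, most of whose members block Wnt signalling by binding Lrp co-receptors and Kremen, although Dkk3 proteins are the divergent branch of the family. fev encodes an ETS-domain transcription factor (Pet1 in mouse) that switches on the genes of serotonin synthesis in serotonergic neurons. In the mouse pancreas it also marks endocrine precursors.

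Abundance is given in CPM, read counts scaled to the TMM-adjusted gene total of each library, as mean ± SD over libraries. Gene totals ran from 24234927 to 24504469 counts in sst1.1+ins+, from 16948429 to 19861081 in ins+ and from 23425079 to 30374029 in sst1.1+. The transcripts that define the sort followed the labels. Insulin (ins) took 11.1 to 13.1% of gene counts in sst1.1+ins+, 23.8 to 25.8% in ins+ and 0.0642 to 0.125% in sst1.1+. sst1.1 took 16.7 to 20.2% in sst1.1+ins+, 4.35 to 5.56% in ins+ and 25.4 to 28.9% in sst1.1+, so sst1.1 RNA was present in the ins+ libraries too.

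HHEX was lowest in ins+, intermediate in sst1.1+ins+ and highest in sst1.1+. Its level was 31.2, 34.6 and 32.0 CPM in the sst1.1+ins+ libraries, 16.3 and 12.8 CPM in the ins+ libraries, and 80.3, 49.1 and 56.8 CPM in the sst1.1+ libraries. No library of 1 group reached into the range of another. The means were 32.6 ± 1.76 CPM in sst1.1+ins+ (SD, n = 3), 14.5 ± 2.48 CPM in ins+ (n = 2) and 62.1 ± 16.3 CPM in sst1.1+ (n = 3). The underlying counts were 775 to 814 in sst1.1+ins+, 218 and 327 counts in ins+, and 1210 to 2393 in sst1.1+, which gives a counting error of 2.04 to 6.77% per library. The coefficient of variation among sst1.1+ libraries, 26.2%, was several times that error, because sst1.1+ replicate 1 stood well above the other sst1.1+ libraries.

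dkk3b had the same order. Its level was 3805, 4614 and 4265 CPM in sst1.1+ins+, 1537 and 1035 CPM in ins+, and 6499, 6492 and 6274 CPM in sst1.1+. The groups did not overlap, and the 3 sst1.1+ libraries lay within a coefficient of variation of 1.99%. The means were 4228 ± 406 CPM in sst1.1+ins+ (SD, n = 3), 1286 ± 355 CPM in ins+ (n = 2) and 6422 ± 128 CPM in sst1.1+ (n = 3). With 17631 to 193555 counts per library, the counting error was 0.227 to 0.753%. The spread among sst1.1+ins+ libraries, and that among ins+ libraries, was therefore well above this error of read counting. Without molecular identifiers, that error does not cover the sampling of RNA molecules.

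fev was also lowest in ins+, but its order between the other groups was not fixed. Its level was 102, 117 and 109 CPM in sst1.1+ins+, 52.7 and 61.3 CPM in ins+, and 101, 151 and 178 CPM in sst1.1+. Both ins+ libraries lay below all others, while sst1.1+ replicate 1 lay just below all 3 sst1.1+ins+ libraries, so these groups overlapped. Since fev was selected for its low ins+ level, the low place of the ins+ libraries is not a separate result. The share of all genes with both ins+ libraries lowest was not counted. The means were 110 ± 7.52 CPM in sst1.1+ins+ (SD, n = 3), 57.0 ± 6.12 CPM in ins+ (n = 2) and 144 ± 39.0 CPM in sst1.1+ (n = 3). Counts of 1045 to 4034 per library gave a counting error of 1.57 to 3.09%, against a coefficient of variation of 27.2% in sst1.1+.

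**Figure D1:**
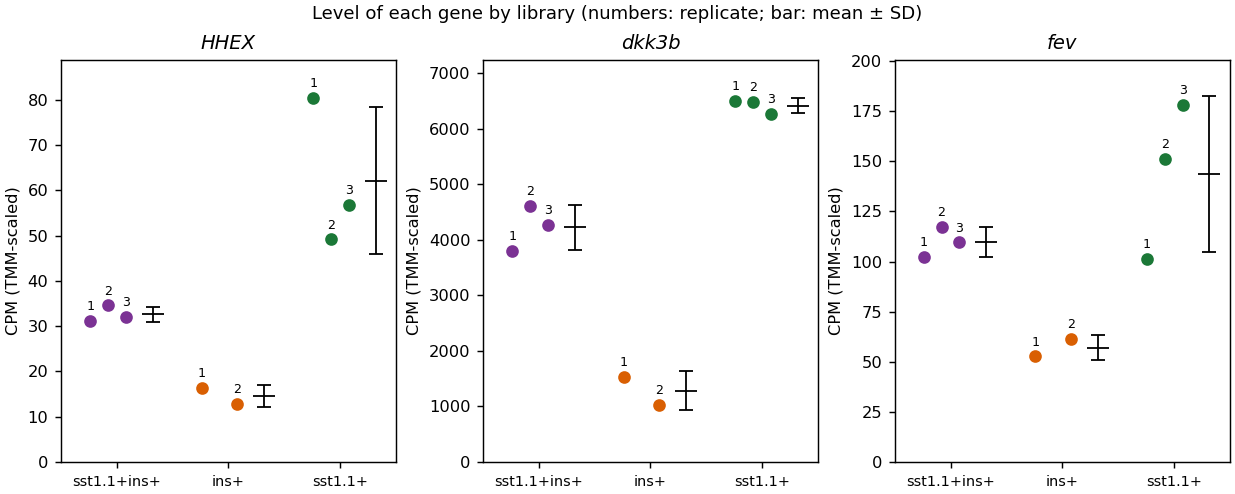
Level of HHEX, dkk3b and fev in each library, in CPM on TMM-scaled totals (linear axes from 0), by sorted group. Points are libraries numbered by replicate, and the bar beside them is the mean ± SD. For HHEX and dkk3b the 3 groups do not overlap, while for fev sst1.1+ replicate 1 lies at 101 CPM, below the sst1.1+ins+ libraries at 102 to 117 CPM.

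The library sst1.1+ replicate 1 differed from its group in opposite directions for the transcription factor genes. It had the highest HHEX and the lowest fev of the sst1.1+ libraries, while its dkk3b level matched the others. It also had the most sst2, the somatostatin gene of another delta-cell population, at 24338 CPM against 7508 and 9183 CPM in sst1.1+ replicates 2 and 3. sst1.2 was likewise highest there, at 39763 CPM against 19183 and 23799 CPM. The glucagon transcripts were lowest in that library, with gcga at 19881 CPM against 40463 and 39701 CPM. gcgb was at 13790 CPM against 25485 and 25250 CPM. Whether these hormone transcripts account for its HHEX and fev levels was not tested.

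Full separation in the order ins+, sst1.1+ins+, sst1.1+ was seen for 326 of 16418 genes (1.99%), HHEX and dkk3b among them and fev not. All sst1.1+ins+ libraries below all sst1.1+ libraries was seen for 1194 genes (7.27%), again with HHEX and dkk3b and without fev. With 2 or 3 libraries a group, separation by itself is therefore common for the second of these patterns and less so for the first.

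Differences were tested with edgeR's quasi-likelihood F-test over all 8 libraries, with Benjamini-Hochberg adjustment over all 16418 genes. HHEX and dkk3b fell in ins+ against sst1.1+. HHEX was 4.27-fold lower (log2 fold change -2.09 ± 0.29 SE, adjusted p = 0.00190) and dkk3b 4.99-fold lower (-2.32 ± 0.17, adjusted p = 1.88e-05). In this comparison 2.42% of genes were called lower and 1.61% higher in ins+, and the median log2 fold change of all genes was -0.07. fev was 2.52-fold lower in ins+ (log2 fold change -1.33), the difference it was taken for. The HHEX and dkk3b calls held in all 18 alternative analyses, with adjusted p up to 0.0257 for HHEX and 0.000545 for dkk3b.

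Against sst1.1+, neither HHEX nor dkk3b passed the threshold in sst1.1+ins+. HHEX was 1.91-fold lower (log2 fold change -0.93 ± 0.24 SE, adjusted p = 0.224) and dkk3b 1.52-fold lower (-0.60 ± 0.14, adjusted p = 0.169) in edgeR's test. fev was 1.31-fold lower (log2 fold change -0.39), given without a test because the sst1.1+ libraries were part of its choice. Few genes passed at all in this comparison, 0.177% higher and 0.0305% lower by edgeR (29 and 5 genes) where limma-voom called 40 and 59, and the all-gene median was 0.00. The unadjusted p-values were 0.00247 for HHEX and 0.00123 for dkk3b. The outcome depended on the tool: dkk3b was past 0.05 by DESeq2, by limma-voom and without the count filter, and HHEX by DESeq2, as given under the processing alternatives. In DESeq2 and in limma-voom, more genes passed in this comparison overall.

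Against ins+, dkk3b was higher in sst1.1+ins+ and HHEX did not pass. dkk3b was 3.29-fold higher (log2 fold change 1.72 ± 0.17 SE, adjusted p = 0.000499 in edgeR's test) and was called in all 18 alternatives. HHEX was 2.24-fold higher (1.16 ± 0.28, adjusted p = 0.0952), and passed 0.05 in 2 of the 18. fev was 1.93-fold higher (log2 fold change 0.95), given without a test because its choice rested on the ins+ libraries. Of all genes, 0.755% were called higher and 0.164% lower in sst1.1+ins+ than in ins+ by edgeR (124 and 27 genes), while limma-voom called 69 higher and 108 lower, and the all-gene median was 0.08. The comparisons share libraries, since each group enters a pair of them, so the differences of a gene are not independent of each other.

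**Figure D2:**
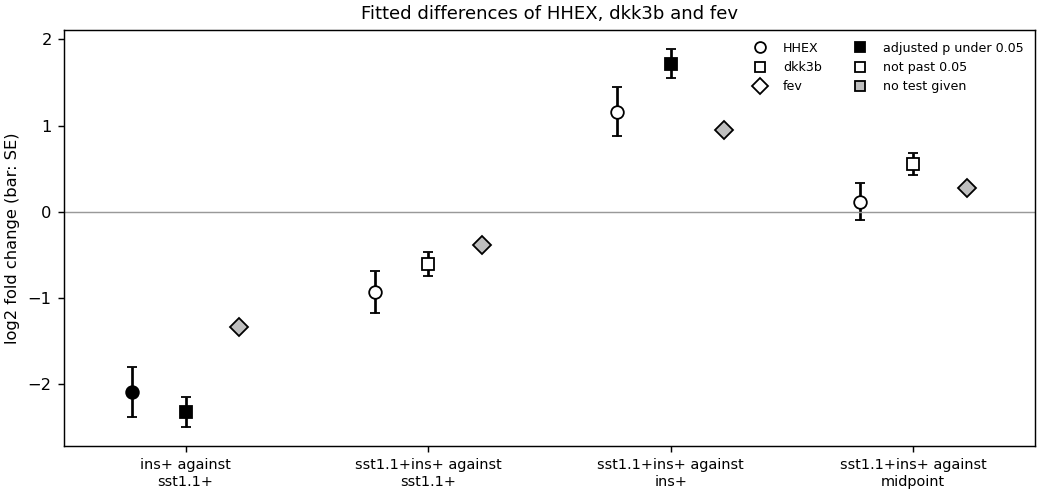
Fitted log2 fold changes of HHEX (circles), dkk3b (squares) and fev (diamonds) in 3 pairwise comparisons and against the log2 midpoint of ins+ and sst1.1+. Bars are standard errors, and black fill marks an adjusted p under 0.05. HHEX at -2.09 and dkk3b at -2.32 are filled for ins+ against sst1.1+, and dkk3b at 1.72 for sst1.1+ins+ against ins+. Grey symbols for fev carry no test.

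The sst1.1+ins+ level of each gene was placed on a log2 scale running between 0 at the sst1.1+ mean and 1 at the ins+ mean. HHEX lay at 0.435, with libraries from 0.393 to 0.464, closest of the 3 to the middle. dkk3b lay at 0.259 (0.203 to 0.321) and fev at 0.270 (0.193 to 0.345), both nearer sst1.1+. sst1.1 itself lay at 0.248 and ins at 0.873, so dkk3b sat near the hormone whose promoter region drove the reporter. On a linear scale the positions were 0.621 for HHEX, 0.427 for dkk3b and 0.390 for fev, so HHEX passed to the ins+ side of the middle. The fev position rested on the spread within sst1.1+: it was 0.156 without sst1.1+ replicate 3 and 0.381 without sst1.1+ replicate 1.

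Set against the log2 midpoint of ins+ and sst1.1+, dkk3b in sst1.1+ins+ was 1.47-fold above it (log2 fold change 0.56 ± 0.13 SE) but did not pass after adjustment (adjusted p = 0.279, unadjusted p = 0.000919, edgeR). HHEX lay 0.12 ± 0.22 above the midpoint on the log2 scale (adjusted p = 0.971, edgeR), and fev 0.28 above it, with no test. Only 0.0365% of genes were called off the midpoint in either direction, and the all-gene median was 0.10. Without ins+ replicate 1 the dkk3b difference was 0.72, with an adjusted p of 0.0367 in edgeR's test.

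As a share of the sst1.1+ mean, the sst1.1+ins+ libraries held 52.5% of HHEX, 65.8% of dkk3b and 76.5% of fev. The ins+ libraries held 23.4% of HHEX, 20.02% of dkk3b and 39.7% of fev. For the hormone sst1.1 the sst1.1+ins+ share was 65.1% and the ins+ share 17.5%, close to the values of dkk3b. For EGFP, the reporter transcript, the sst1.1+ins+ share was 45.3% and the ins+ share 3.17%, lower than those of HHEX, dkk3b and fev. The other somatostatin genes did not follow this pattern, since sst1.2 had an sst1.1+ins+ share of 102% and an ins+ share of 85.8%, and sst2 of 128% and 152%. Of 6 other tested genes in the delta-cell list, edgeR called only sst1.1 lower in ins+ than in sst1.1+. ghsra averaged 5.02 CPM in sst1.1+ins+, 0.199 CPM in ins+ and 1.08 CPM in sst1.1+. For rbp4 the sst1.1+ libraries had 10, 11 and 484 counts, and its means were 0.348 CPM in sst1.1+ins+ and 0.342 CPM in ins+.

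**Figure D3:**
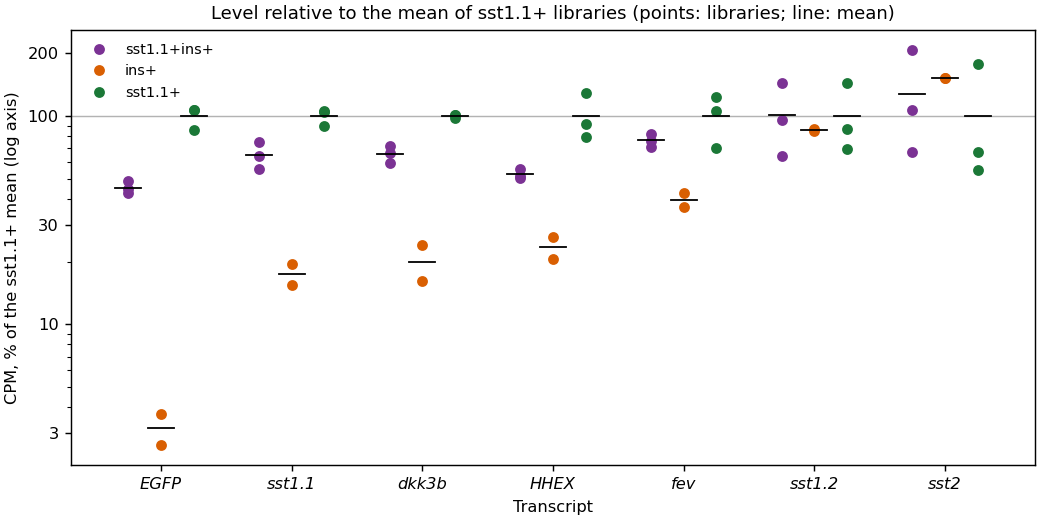
Level of 7 transcripts in each library as a percentage of that transcript's mean in sst1.1+ (log axis). Points are libraries, short lines group means. dkk3b and sst1.1 have similar group means, 65.8% and 65.1% in sst1.1+ins+ and 20.02% and 17.5% in ins+. EGFP reaches 3.17% in ins+, while sst1.2 and sst2 stay at 85.8% and 152%.

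Because sst1.1 RNA was present in all libraries, each gene was also expressed per 1000 sst1.1 counts of the same library, a measure added after the data were seen. sst1.1 itself was 5.72-fold lower in ins+ than in sst1.1+ in edgeR's fit. A gene that fell less than this is therefore higher in ins+ on this scale. With an all-gene median log2 fold change of -0.07, that holds for most genes, and their share was not counted. dkk3b differed little between groups on this scale, with 24.3, 22.0 and 23.5 counts in sst1.1+ins+, 27.9 and 23.9 counts in ins+, and 22.2, 25.9 and 21.0 in sst1.1+. All 3 groups overlapped. Its log2 differences were 0.17 for ins+ against sst1.1+, 0.02 for sst1.1+ins+ against sst1.1+ and -0.15 for sst1.1+ins+ against ins+, with exact two-sided permutation p-values of 0.3, 1 and 0.3.

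HHEX per 1000 sst1.1 counts was 0.199, 0.165 and 0.176 in sst1.1+ins+, 0.296 and 0.296 counts in ins+, and 0.274, 0.196 and 0.190 in sst1.1+. The ins+ libraries were the highest and the sst1.1+ins+ libraries the lowest on average, the reverse of the order of HHEX in CPM for ins+ and sst1.1+. HHEX was 4.27-fold lower in ins+, less than the fall of sst1.1, so this reversal follows from the divisor. The log2 differences were 0.45 for ins+ against sst1.1+, -0.27 for sst1.1+ins+ against sst1.1+ and -0.72 for sst1.1+ins+ against ins+. Exact two-sided permutation p-values were 0.2, 0.3 and 0.1. Without sst1.1+ replicate 1 the difference between sst1.1+ins+ and sst1.1+ was -0.11.

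fev per 1000 sst1.1 counts was 0.653, 0.559 and 0.604 in sst1.1+ins+, 0.958 and 1.42 counts in ins+, and 0.345, 0.603 and 0.597 in sst1.1+. Both ins+ libraries were above all the others. fev was 2.52-fold lower in ins+ in CPM, less than the fall of sst1.1, so its rise here also follows from the divisor. The log2 difference was 0.28 for sst1.1+ins+ against sst1.1+, and 0.01 without sst1.1+ replicate 1. For ins+ against sst1.1+ it was 1.22 and for sst1.1+ins+ against ins+ it was -0.95. These are given without a test. The smallest p that the permutations for HHEX and dkk3b can give is 0.1, and none of their values was below 0.42 after adjustment over 7 tests, a set that also held 1 test of fev.

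**Figure D4:**
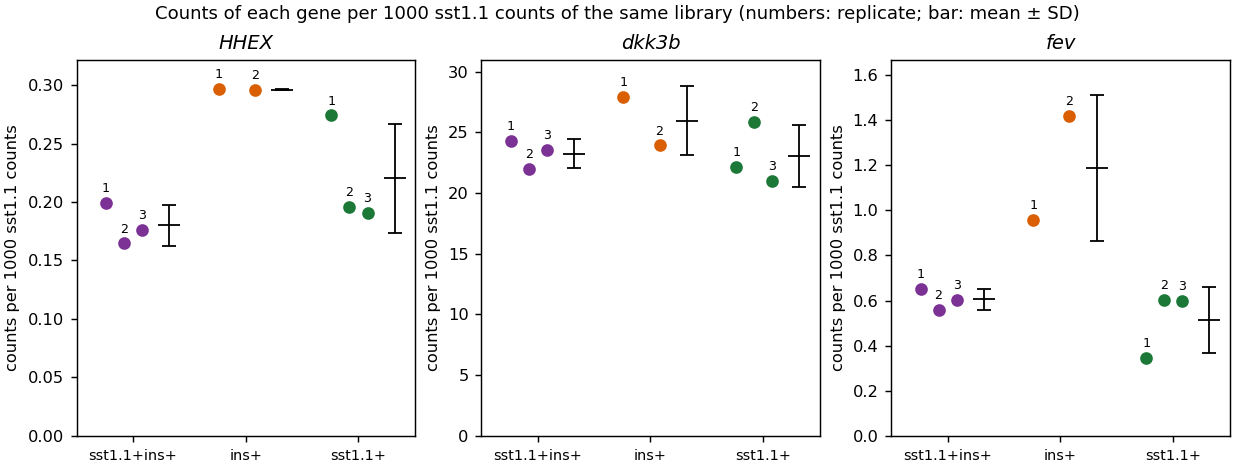
Counts of HHEX, dkk3b and fev per 1000 sst1.1 counts of the same library, by sorted group (linear axes from 0). Points are libraries numbered by replicate, bars mean ± SD. dkk3b lies between 21.0 and 27.9 in all libraries, while ins+ is highest for HHEX (0.296 in both libraries) and for fev (0.958 and 1.42). HHEX and fev fell less in ins+ than sst1.1, which raises them on this scale.

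Across the 8 libraries, Pearson's r of log2 CPM was 0.952 between HHEX and dkk3b, 0.890 between dkk3b and fev and 0.793 between HHEX and fev. These values describe points that share libraries and fall into 3 groups, so much of r comes from the group levels. Every r of fev, here and below, also rests on the low ins+ level it was selected for, so none is support for shared regulation. Many genes had a higher r. By r with HHEX among 4487 other named genes, dkk3b had rank 35 and fev rank 471. By r with dkk3b, HHEX had rank 70 and fev rank 233. With sst1.1, r was 0.994 for dkk3b, 0.956 for HHEX and 0.903 for fev. With sst2, r was -0.384 for dkk3b, -0.270 for HHEX and -0.575 for fev.

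Among 4487 other named genes averaging at least 20 CPM in 1 or more groups, those most like each gene were taken by r over the 8 libraries, with the 5 highest and the 2 lowest named. For dkk3b they were chia.6 (r = 0.997), an acidic chitinase gene, tpst1 (0.996), encoding a tyrosylprotein sulfotransferase of the Golgi, sst1.1 (0.994), itga6b (0.992), encoding an integrin alpha chain, and rhbdd1 (0.990), encoding a rhomboid protease. itga6b averaged 193 CPM in sst1.1+ins+, 46.6 CPM in ins+ and 377 CPM in sst1.1+. tpst1 averaged 101 CPM in sst1.1+ins+, 15.3 CPM in ins+ and 167 CPM in sst1.1+. The most opposite were slc43a2b (r = -0.976), an amino acid transporter gene, and arfgef1 (-0.978), encoding an exchange factor for Arf GTPases.

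For HHEX the most like were ap1s3b (r = 0.992), encoding an adaptor subunit of clathrin coats, lgr4 (0.985), encoding a receptor for R-spondins, fkbp11 (0.984), a prolyl isomerase gene of the endoplasmic reticulum, rab11fip4b (0.981), encoding a Rab11 effector, and sdc4 (0.979), a syndecan gene. All 5 had the order ins+, sst1.1+ins+, sst1.1+ in their means, which follows from their choice by r with HHEX. ap1s3b, for example, averaged 21.3 CPM in sst1.1+ins+, 9.23 CPM in ins+ and 38.9 CPM in sst1.1+. The most opposite were camk2g1 (r = -0.985), a calcium and calmodulin kinase gene, and sat1a.1 (-0.992), encoding an acetyltransferase of polyamines. sat1a.1 averaged 96.9 CPM in sst1.1+ins+, 194 CPM in ins+ and 61.4 CPM in sst1.1+.

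For fev the likeness was looser. The most like were pbx3b (r = 0.959), a TALE homeobox gene, SBNO2 (1 of 2) (0.954), hapln1b (0.952), encoding a link protein of hyaluronan, sqstm1 (0.942), encoding the autophagy receptor p62, and bcl2l1 (0.941), a gene of the Bcl-xL type. pbx3b averaged 159 CPM in sst1.1+ins+, 66.3 CPM in ins+ and 223 CPM in sst1.1+. The most opposite were wnk1a (r = -0.949) and dyrk1ab (-0.953), both kinase genes. With a prior count of 0.5 in place of 2, the 5 genes most like each of HHEX, dkk3b and fev were unchanged.

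The partners and relatives of the 3 genes were read from 10 lists on Wnt signalling, Groucho corepressors, ETS factors and serotonin, with 176 genes in the table and 95 tested. Of the 95, edgeR called 2 higher and 7 lower in ins+ than in sst1.1+, against 1.61% and 2.42% of all genes. DESeq2, fitted without the low-count filter, called 5 higher and 13 lower of the 176, against 736 and 1183 of all 22692 genes it fitted. List genes without any counts were not in that fit. DESeq2 counts of a list, here and below, are thus not limited to its tested genes. The number of list genes in that fit was not counted, so no share is compared. Limma-voom called 3 higher and 5 lower, against 353 and 262 of all genes. The median log2 fold change of the 95 was -0.17, and -0.17 with genes at 0 in a whole group set to their bound, against -0.07 for all genes. For sst1.1+ins+ against sst1.1+ edgeR called 0, against 0.177% higher and 0.0305% lower of all genes, with 3 higher and 5 lower at an unadjusted p under 0.05. DESeq2 called 1 higher and 2 lower of the lists, against 203 and 143 of all 22692 genes it fitted, and limma-voom called 0. For sst1.1+ins+ against ins+ edgeR called 3 higher (wif1, ctnnb1 and axin2) and 0 lower, against 0.755% and 0.164% of all genes. At an unadjusted p under 0.05, 12 were higher and 5 lower, with no all-gene count at that level given. DESeq2 called 11 higher and 1 lower of the lists, against 684 and 276 of all 22692 genes it fitted. Limma-voom called 2 higher and 1 lower, against 69 and 108 of all genes. The wif1 and ctnnb1 calls were lost in 5 of 18 alternatives, those without sst1.1+ins+ replicate 1 or 3, ins+ replicate 1 or 2 or sst1.1+ replicate 2 (adjusted p up to 0.193 and 0.114), and the axin2 call in 12, among them all that left out a library (up to 0.221). The medians were -0.14 and 0.16 (0.07 with bounds), against 0.00 and 0.08 for all genes.

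Around dkk3b, the other genes of the Dickkopf family had low counts that differed widely between libraries of a group. dkk3a, the other zebrafish copy of Dkk3, averaged 2.28 CPM in sst1.1+ins+, 3.19 CPM in ins+ and 0.390 CPM in sst1.1+, with 23, 16 and 128 counts in the sst1.1+ins+ libraries, 2 and 107 in the ins+ libraries and 2, 0 and 25 in the sst1.1+ libraries. dkk1b had counts in 1 sst1.1+ins+ library and 1 sst1.1+ library, dkk2 in 1 sst1.1+ library, and dkk1a had 0 counts in all 8. Of 5 tested genes among Dickkopf members, kremen1 and the co-receptors lrp5 and lrp6, edgeR called 0 in each pairwise comparison, as did an unadjusted p under 0.05, DESeq2 and limma-voom. Their median was -1.03 for ins+ against sst1.1+.

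Among secreted Wnt antagonists wif1, which binds Wnt ligands directly, fell with dkk3b. It had 319.9, 273 and 305 CPM in sst1.1+ins+, 174 and 149 CPM in ins+, and 427, 406 and 378 CPM in sst1.1+, with no overlap between the groups. The means were 299 ± 24.1 CPM in sst1.1+ins+, 162 ± 17.97 CPM in ins+ and 403 ± 24.8 CPM in sst1.1+ (SD, n = 3, 2 and 3). In ins+ against sst1.1+ it was 2.49-fold lower (log2 fold change -1.32 ± 0.16 SE, adjusted p = 0.000685, edgeR), a call kept in all 18 alternatives. wif1 was the single call among 4 tested secreted modulators other than Dickkopf members, whose median was -2.16 (-1.59 with bounds). Of 7 tested genes for Wnt ligands and their transporter, 0 were called by edgeR in ins+ against sst1.1+, with 1 lower at an unadjusted p under 0.05, 1 lower by DESeq2 and 0 by limma-voom, and a median of 0.38.

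Of 12 tested Wnt receptor genes, lgr4 fell in ins+ against sst1.1+ and the other 11 were not called (median -0.77, and -0.31 with bounds). lgr4 averaged 29.7 ± 4.09 CPM in sst1.1+ins+, 13.0 ± 4.10 CPM in ins+ and 56.5 ± 8.48 CPM in sst1.1+ (SD, n = 3, 2 and 3), and was 4.34-fold lower in ins+ (log2 fold change -2.12 ± 0.30 SE, adjusted p = 0.00231, edgeR). Of 23 tested genes of the beta-catenin pathway, ctnnb1 and axin2 fell (median -0.12). ctnnb1, the beta-catenin gene, averaged 177 ± 38.8 CPM in sst1.1+ins+, 72.5 ± 2.38 CPM in ins+ and 242 ± 45.8 CPM in sst1.1+, and was 3.34-fold lower in ins+ (-1.74 ± 0.23, adjusted p = 0.00123, edgeR), called in all 18 alternatives. axin2, a feedback target of the pathway, averaged 15.6 ± 5.93 CPM in sst1.1+ins+, 2.85 ± 0.786 CPM in ins+ and 14.2 ± 0.697 CPM in sst1.1+. Its call in ins+ against sst1.1+ (log2 fold change -2.32 ± 0.50 SE, adjusted p = 0.0241, edgeR) was lost in 7 of 18 alternatives, among them those without ins+ replicate 1 or 2 or without sst1.1+ replicate 1 or 2, with an adjusted p of up to 0.164.

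Around HHEX, none of the 6 tested Groucho corepressor genes was called by edgeR in ins+ against sst1.1+, with 2 higher and 1 lower at an unadjusted p under 0.05, 1 lower by DESeq2 and 0 by limma-voom (median 0.30). tle3b averaged 4.86 CPM in sst1.1+ins+, 0.528 CPM in ins+ and 8.91 CPM in sst1.1+ (adjusted p = 0.115 for ins+ against sst1.1+, edgeR). Among 29 other tested endocrine transcription factor genes, 4 rose (mnx1, nkx6.2, insm1b and foxa3) and 2 fell (foxa2 and hnf1bb) in ins+ against sst1.1+, and the median was 0.60. DESeq2 called 9 higher and 3 lower in this list, and limma-voom 6 higher and 1 lower. The 1 lower by limma-voom was foxa2, so hnf1bb was not called there. Otherwise the foxa3 and hnf1bb calls were not followed through the alternatives. mnx1, a beta-cell homeobox gene, averaged 34.7 ± 9.25 CPM in sst1.1+ins+, 62.2 ± 2.24 CPM in ins+ and 6.75 ± 1.001 CPM in sst1.1+ (SD, n = 3, 2 and 3). It was 9.21-fold higher in ins+ than in sst1.1+ (log2 fold change 3.204 ± 0.30 SE, adjusted p = 0.000112, edgeR). In sst1.1+ins+ mnx1 and nkx6.2 were called higher than in sst1.1+ (log2 fold changes 2.36 and 5.65, adjusted p = 0.00382 and 0.00943, edgeR), while HHEX was not called lower. The nkx6.2 call was lost in 2 of 18 alternatives, among them that without sst1.1+ replicate 1, with an adjusted p of up to 0.0685, and its log2 fold change was 6.59 without sst1.1+ replicate 3.

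Around fev, 2 of 17 other tested ETS genes fell in ins+ against sst1.1+ by edgeR and 0 rose (median -0.90), with 0 higher and 5 lower at an unadjusted p under 0.05, 4 lower by DESeq2 and 1 lower by limma-voom. elf3, an epithelial ETS gene, had 214, 63.7 and 88.8 CPM in sst1.1+ins+, 1.45 and 16.6 CPM in ins+, and 316, 436 and 253 CPM in sst1.1+, with no overlap between the groups. It was 37.4-fold lower in ins+ (log2 fold change -5.22 ± 0.89 SE, adjusted p = 0.00618, edgeR), a call kept in all 18 alternatives. The size rested on the ins+ libraries: it was 20.2-fold without ins+ replicate 1 and 231-fold without ins+ replicate 2. ets2 averaged 45.0 ± 5.12 CPM in sst1.1+ins+, 21.8 ± 1.79 CPM in ins+ and 46.9 ± 10.8 CPM in sst1.1+. Its call (adjusted p = 0.0416, edgeR) was lost in 10 of 18 alternatives, among them each that left out a library except sst1.1+ replicate 3, with an adjusted p of up to 0.166.

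Of 18 genes of serotonin synthesis, transport and cofactor supply in the table, 13 passed the filter on low counts, among them tph1a and tph2. The floor of 3 counts was 0.101 to 0.176 CPM per library. tph1a, for the first step of serotonin synthesis, averaged 0.358 CPM in sst1.1+ins+, 2.201 CPM in ins+ and 0 in sst1.1+. tph2, the neuronal form, averaged 0.258 CPM in sst1.1+ins+, 0.0249 CPM in ins+, below that floor, and 1.66 CPM in sst1.1+. No spread is given for tph1a and tph2, so no difference between groups is read from these means. The serotonin transporter gene slc6a4a had 0 counts in all 8 libraries. The other copy, slc6a4b, had counts but did not pass the filter. It averaged 0.0516 CPM in sst1.1+ins+, 0 CPM in ins+ and 0.162 CPM in sst1.1+. These means lie near or below the floor of 3 counts, so no difference between groups is read from them. Of the 13 tested genes edgeR called gch1 in ins+ against sst1.1+, where it rose, the direction opposite to fev (median 0.71). The transporter gene SLC18A1 went the same way as fev but was not called (adjusted p = 0.0937, edgeR). It had 0 counts in both ins+ libraries, 60, 295 and 68 in sst1.1+, and 150, 0 and 110 in sst1.1+ins+. spra was 3.22-fold higher in ins+, also not called (adjusted p = 0.0947, edgeR). DESeq2 called 2 higher and 1 lower in this list, and limma-voom 2 higher and 0 lower.

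gch1, whose product makes the cofactor of tryptophan hydroxylase and of other enzymes, had 83.1, 92.03 and 67.3 CPM in sst1.1+ins+, 151.7 and 152.4 CPM in ins+, and 62.1, 43.5 and 79.1 CPM in sst1.1+. The means were 80.8 ± 12.5 CPM in sst1.1+ins+, 152 ± 0.503 CPM in ins+ and 61.6 ± 17.8 CPM in sst1.1+ (SD, n = 3, 2 and 3), with both ins+ libraries above all others. It was 2.47-fold higher in ins+ than in sst1.1+ (log2 fold change 1.30 ± 0.24 SE, adjusted p = 0.0108, edgeR), and was not called without ins+ replicate 2 (adjusted p = 0.0581). Of 3 tested serotonin receptor genes edgeR called 0, with 1 lower at an unadjusted p under 0.05, 1 lower by DESeq2 and 0 by limma-voom (median -1.30).

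Of 7 tested regulators that act beside Fev in serotonergic neurons, insm1b rose and foxa2 fell in ins+ against sst1.1+ (median 0.60). insm1b averaged 52.1 ± 12.2 CPM in sst1.1+ins+, 93.5 ± 3.96 CPM in ins+ and 28.0 ± 15.1 CPM in sst1.1+ (log2 fold change 1.74 ± 0.41 SE, adjusted p = 0.0391, edgeR). The call was lost in 7 of 18 alternatives, among them each that left out a library except sst1.1+ replicates 1 and 3, with an adjusted p of up to 0.125. foxa2 averaged 64.7 ± 9.74 CPM in sst1.1+ins+, 33.0 ± 8.62 CPM in ins+ and 79.1 ± 6.62 CPM in sst1.1+ (-1.26 ± 0.24, adjusted p = 0.0122, edgeR), and was not called without ins+ replicate 2 (adjusted p = 0.123).

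**Figure D5:**
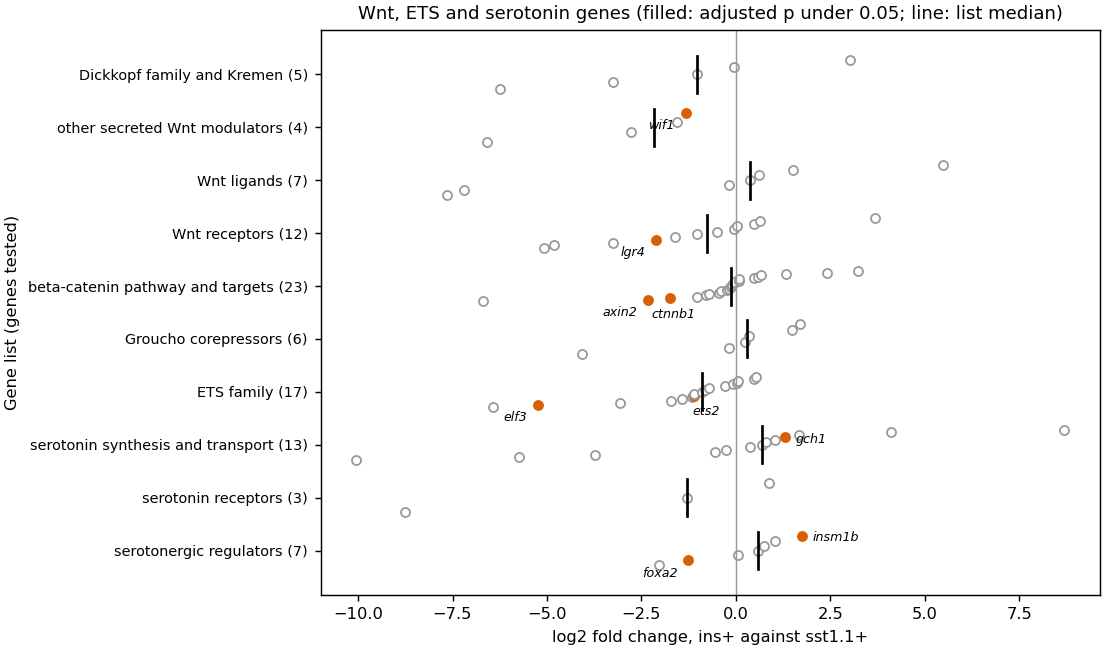
Fitted log2 fold changes for ins+ against sst1.1+ of the tested genes in the 10 lists, without HHEX, dkk3b and fev. Filled points passed an adjusted p of 0.05, and short vertical lines are list medians. The filled genes are wif1, lgr4, axin2, ctnnb1, elf3, ets2 and foxa2 on the lower side and gch1 and insm1b on the higher side. Of the 95 genes, 11 were at 0 in every library of a group, and their fitted values depend on the prior count.

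Summed ductal and epithelial, alpha-cell and immediate early genes were also lowest in ins+. The summed level of 17 ductal and epithelial genes ran from 806 to 1167 CPM in sst1.1+ins+, 438 to 476 CPM in ins+ and 1270 to 1583 CPM in sst1.1+, the same order as HHEX and dkk3b. For ins+ against sst1.1+, edgeR called 9 of the 17 lower and 0 higher, where it called 2.42% of all genes lower. DESeq2 called 10 of the 17 lower and 1 higher, and limma-voom 6 lower and 0 higher. elf3 and hnf1bb are among those 17. Immediate early genes, which respond to dissociation among other stimuli, summed to 4784 to 5478 CPM in sst1.1+ins+, 2286 to 2432 CPM in ins+ and 6003 to 7071 CPM in sst1.1+. Of 22 tested, edgeR called 12 lower in ins+ than in sst1.1+, DESeq2 14 and limma-voom 11, and 0 higher by each. Alpha-cell genes summed to 24506 to 34151 CPM in sst1.1+ins+, 11375 to 18713 CPM in ins+ and 33737 to 66045 CPM in sst1.1+, with irx2a and gc at 0 in all libraries. Nearly all of that sum was gcga and gcgb, which averaged 33348 and 21508 CPM in sst1.1+. Of 6 tested, edgeR called these 2 lower in ins+ than in sst1.1+ and 0 higher. DESeq2 called 3 lower and 1 higher, and limma-voom 2 lower and 0 higher. ttr and mafba went the other way (log2 fold changes 4.64 and 0.98), not called by edgeR. The part of the ductal, immediate early and alpha-cell genes in the HHEX, dkk3b and fev differences was not tested.

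Other markers were lower. Immune genes summed to 56.1 to 126 CPM in sst1.1+ins+, 79.6 to 98.2 CPM in ins+ and 200 to 316 CPM in sst1.1+ with lcp1 at 0 throughout, and glial genes to 102 to 136, 63.1 to 77.1 and 142 to 183 CPM with plp1a, sox10 and foxd3 at 0. Most of the immune sum was cd74a and cd74b (means of 109 and 148 CPM in sst1.1+), and most of the glial sum was plp1b (157 CPM). Acinar genes stayed under 193 CPM, mesenchymal genes under 119 CPM and hepatocyte genes under 51 CPM in all libraries, and endothelial and erythrocyte genes under 8 CPM. Markers at 0 in all libraries included pdgfrb, fabp10a, pecam1 and alas2. Detected were 11 of 13 mesenchymal, 10 of 15 hepatocyte, 10 of 14 endothelial and 4 of 8 erythrocyte genes. Of immune genes 12 of 13 were detected, and of glial genes 5 of 8. Within sst1.1+, acta2 had 24, 663 and 1307 counts and col1a1a had 1, 30 and 193 counts in replicates 1, 2 and 3. Of tested genes in these 7 lists edgeR called cd74a and plp1b, both lower in ins+ than in sst1.1+. The cd74a call was lost in 2 of 18 alternatives and the plp1b call in 1, each without an ins+ library. DESeq2 called 2 acinar, 2 mesenchymal, 2 immune and 1 glial gene lower in ins+ than in sst1.1+, and limma-voom 2 immune genes and 1 glial gene. In sst1.1+ins+ against sst1.1+, DESeq2 and limma-voom each called 2 immune genes lower, where edgeR called 0, with 2 lower at an unadjusted p under 0.05.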

How the data were processed

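Raw gene-level counts, as deposited by the authors, covered 8 Smart-Seq2 libraries. Per the submitters' processing notes, reads were handled with Trim Galore, HISAT2, featureCounts and GRCz11. The sources used here give no version, strand setting or rule for multi-mapped reads, so reads shared between duplicated or overlapping genes cannot be apportioned. The table held 32046 rows. The 92 ERCC rows and the EGFP row (0.0200 to 0.810% of counts) stayed out of totals and tests. Intervals and floors cover counting error only.

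Tests used edgeR 4.0.16 under R 4.3.3 (default expression filter, TMM, 5 residual degrees of freedom, adjusted p of 0.05). SE was taken as |log2 fold change| over the root of the F statistic. Alternatives were DESeq2 1.42.0, limma-voom (limma 3.58.1), other scalings and filters, thinning, 2-group fits, a replicate block and each library left out. Scripts were tested on simulated data.

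HHEX, dkk3b, fev and the 23 gene lists were chosen with earlier results of these data known. The genes named are these 3, the hormones, EGFP and detected dkk genes, up to 3 genes per list by p, and the most like genes. foxa3, hnf1bb, tph1a, tph2, slc6a4b, ttr and mafba, and markers at 0, were named outside this rule, after their values were seen. Some genes under the rule, such as arxa, are not described. No genome of the build was used, so no coordinates or sequences are given. Of 31953 gene IDs, 26121 were in the names table used.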

Additional observations from a re-analysis of the deposited data

How the results depend on the processing

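The direction of HHEX, dkk3b and fev was the same in every pairwise comparison under all 18 alternatives run (17 for the midpoint). HHEX and dkk3b stayed past 0.05 for ins+ against sst1.1+ (log2 fold changes -2.28 to -1.86 and -2.64 to -2.07), and dkk3b for sst1.1+ins+ against ins+ (1.47 to 2.03); fev ranged from -1.53 to -1.15 for ins+ against sst1.1+. Without an ins+ library, the other ins+ library was assumed to vary like those of the other groups.

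Some results passed 0.05 only in an alternative, and the cause was not tested. For sst1.1+ins+ against sst1.1+, HHEX was -0.94 by DESeq2 (adjusted p = 0.0163), and dkk3b was -0.61 by DESeq2 (0.00910), -0.64 by limma-voom (0.000325) and -0.60 with no low-count filter (0.00219), where all other adjusted p-values ran up to 0.629 for HHEX and 0.503 for dkk3b. For sst1.1+ins+ against ins+, HHEX was 1.15 by DESeq2 (0.00317) and 1.17 with no filter (0.0205). Against the midpoint, dkk3b was 0.55 by DESeq2 (0.0188), 0.52 by limma-voom (0.0216) and 0.56 with no filter (0.00172), and 0.43 to 0.72 when a library was left out, passing without ins+ replicate 1 (0.0367).

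Genes called for ins+ against sst1.1+ numbered 662, against 1919 by DESeq2, 1276 with no filter and 383 in the 2-group fit; leaving out a library gave 364 (without ins+ replicate 2) to 752, with 423 and 408 without sst1.1+ replicates 1 and 2. For sst1.1+ins+ against sst1.1+ they numbered 34, against 346 by DESeq2, 99 by limma-voom and 229 with no filter, and 19 to 39 with a library left out (19 and 21 without sst1.1+ins+ replicates 3 and 1). For sst1.1+ins+ against ins+ they numbered 151, against 960 by DESeq2 and 560 with no filter, and 59 to 192 with a library left out (59, 90 and 75 without sst1.1+ins+ replicates 1, 2 and 3, 81 without ins+ replicate 2 and 94 without sst1.1+ replicate 2). Off the midpoint they numbered 6, against 177 by DESeq2, 11 by limma-voom and 119 with no filter, and 1 to 31 with a library left out (31 without ins+ replicate 1, 1, 2 and 2 without sst1.1+ins+ replicates 1, 2 and 3, and 3 without ins+ replicate 2 or sst1.1+ replicate 1). Limma-voom called 353 higher and 262 lower for ins+ against sst1.1+, where edgeR called 265 and 397, and the balance also turned for sst1.1+ins+ against sst1.1+ (40 and 59, against 29 and 5) and against ins+ (69 and 108, against 124 and 27). Without ins+ replicate 1 the all-gene median for ins+ against sst1.1+ was -0.27, and without ins+ replicate 2 it was -0.21.

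Same-numbered libraries of different groups did not deviate together over all genes (Pearson's r over 16418 genes 0.0125, -0.0291 and -0.00710 between sst1.1+ins+ and sst1.1+). With 2 or 3 libraries a group this does not settle whether the numbers pair the libraries, and the labels do not say. With the replicate number as a block, 648, 44 and 181 genes were called in the pairwise comparisons and 10 off the midpoint, and no call of HHEX or dkk3b changed. With a library left out the position of HHEX ran from 0.374 to 0.475 and that of fev from 0.156 to 0.381. Depth limits the low genes most: dkk1b had 28 and 27 counts in 2 libraries and dkk2 had 14 counts in 1, with 0 in the others.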
